A study of Mus musculus with 27 samples.

Results

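The GATA factor genes *Gata2*, *Gata3*, *Gata4*, *Gata5* and *Gata6* and the genes of their FOG (friend of GATA) partners, *Zfpm1* (FOG1) and *Zfpm2* (FOG2), were followed while mouse embryonic stem cells (ESCs) were taken toward gonadal progenitors and then Sertoli-like cells. These 7 genes were matched by symbol among the 48795 genes listed for each library, and all 7 passed the filter on low counts, which kept 20839 genes. Bulk RNA sequencing covered 27 libraries in 9 groups of 3. The cells of every group came from 1 clone of XY ESCs (strain F1:C57BL/6 x CBA) that carries the Tesco-CFP reporter, in which a *Sox9* enhancer drives cyan fluorescent protein, and the R26-rtTA transactivator. These features are shared by all groups. EpiSC cells had spent 60 h in bFGF (12 ng/ml) and Activin A (20 ng/ml). Mesoderm (M) cells had then spent 36 h in bFGF (20 ng/ml), BMP4 (10 ng/ml) and the PI3-kinase inhibitor LY294002 (10 µM). The intermediate mesoderm (IM) media shared BMP4 (20 ng/ml) with bFGF (5 ng/ml), which together made up IM1. IM3 added retinoic acid (RA, 100 nM) to these. IM2 added RA and Activin A (10 ng/ml), IM4 added RA and the WNT agonist CHIR99021 (0.3 µM), and IM5 added all 3. Induced Sertoli-like cells (iSLCs) were IM3 cells infected with doxycycline-inducible *Nr5a1* and *Dmrt1* viruses, cultured in a Sertoli medium that also held Activin A, and sorted for CFP. The iSLC group is therefore a sorted fraction and the other groups are whole cultures.

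GATA factors are zinc finger proteins that bind the DNA core GATA and act in overlapping sets of tissues. GATA4, GATA5 and GATA6 are known for the heart, gut and extraembryonic endoderm, and GATA4 and GATA6 also for the somatic gonad. GATA2 is best known for blood progenitors and endothelium, and GATA3 for T cells, the nephric duct and trophoblast. FOG proteins do not bind DNA as GATA factors do. They dock on the amino-terminal zinc finger of a GATA factor and recruit corepressors such as CtBP and the NuRD complex. FOG1 works with GATA1 in red cells and megakaryocytes, whereas FOG2 works with GATA4 in the heart and in the early gonad, where the pair is needed for testis determination.

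RefSeq promoter windows of 300 bases (250 before the start and 50 after it, GRCm38.p6) were found for *Gata2*, *Gata3*, *Gata5* and *Zfpm1*, and *Gata2* has a window at each of 2 starts. They were searched on both strands for the GATA site AGATAA and for its variants with T as the first letter (TGATAA), with G as the last letter (AGATAG) or with both changes (TGATAG), since GATA factors are known to act on each other's genes. Of all 32851 windows in the table, 29.8% held at least 1 match. Of the 5 windows of these genes, only that of *Gata3* held a match, at base 37 after the start. The window of *Gata3* is shown for that match, that of *Gata5* as the gene with the widest range of levels below, and that of *Zfpm1* as the FOG gene whose level fell in iSLCs. Capitals mark the match, each window runs 5′ to 3′ along its gene, and a match describes the letters only. The windows lie at chr2:9878551-9878850 (*Gata3*, minus strand), chr2:180334630-180334929 (*Gata5*, minus strand) and chr8:122281891-122282190 (*Zfpm1*, plus strand), with GC contents of 67.3%, 69.7% and 73.7%.
Gata3: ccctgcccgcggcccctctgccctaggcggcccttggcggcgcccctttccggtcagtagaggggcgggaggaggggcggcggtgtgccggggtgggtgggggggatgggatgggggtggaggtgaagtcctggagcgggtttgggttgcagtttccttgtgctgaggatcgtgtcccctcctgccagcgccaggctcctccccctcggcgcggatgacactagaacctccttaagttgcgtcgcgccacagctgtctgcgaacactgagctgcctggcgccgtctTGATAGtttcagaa
Gata5: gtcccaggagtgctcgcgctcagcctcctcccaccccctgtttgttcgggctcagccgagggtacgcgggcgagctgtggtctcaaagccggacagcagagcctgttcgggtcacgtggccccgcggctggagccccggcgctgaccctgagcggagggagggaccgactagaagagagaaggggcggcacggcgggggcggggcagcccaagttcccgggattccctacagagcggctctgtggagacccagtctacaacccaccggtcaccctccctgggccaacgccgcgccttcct
Zfpm1: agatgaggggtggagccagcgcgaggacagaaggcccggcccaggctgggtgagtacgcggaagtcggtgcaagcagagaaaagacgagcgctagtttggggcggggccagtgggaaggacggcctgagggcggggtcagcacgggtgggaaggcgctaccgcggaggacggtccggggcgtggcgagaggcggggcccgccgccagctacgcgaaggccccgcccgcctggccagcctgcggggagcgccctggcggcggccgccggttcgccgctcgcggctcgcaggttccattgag

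In the GRCm38 build, *Gata4* (ENSMUSG00000021944) lies on chromosome 14 (63198922 to 63271692, minus strand), *Gata6* (ENSMUSG00000005836) on chromosome 18 (11052064 to 11085635, plus strand) and *Gata5* (ENSMUSG00000015627) on chromosome 2 (180325133 to 180334699, minus strand). *Gata2* (ENSMUSG00000015053) is on chromosome 6 (88193891 to 88207032, plus strand) and *Gata3* (ENSMUSG00000015619) on chromosome 2 (9857078 to 9890034, minus strand). *Zfpm1* (ENSMUSG00000049577) is on chromosome 8 (122282141 to 122337251, plus strand) and *Zfpm2* (ENSMUSG00000022306) on chromosome 15 (40655035 to 41104592, plus strand). Antisense genes share exon bases with *Gata3* (*Gm13256*, 3.896% of its exon bases), *Gata5* (*Gata5os*, 7.873%) and *Gata6* (*1010001N08Rik*, 1.429%). A further gene, *9230102O04Rik*, shares 1.936% of the exon bases of *Gata3* on the same strand. The sources used here give no strand setting for the counting, so reads from these overlaps cannot be told apart.

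The study calls the libraries of a group biological replicates, and the sources used here do not say whether they were separate cultures. The p-values therefore only set a difference against the spread between libraries within groups, estimated over all 27 libraries together. Expected counts summed to between 35923040 and 84876603 per library. The libraries stood on 2 sides for reasons the labels do not give. ESC, M, IM3 and IM4, with 12 libraries, held 4.02 to 27.6 CPM (counts scaled to a common library total) from 6 genes of adult red blood cells, and the other 15 libraries, from EpiSC, iSLC, IM1, IM2 and IM5, held 0.375 to 1.38. The trend of counts with GC content also differed, at -0.414 to -0.077 in the former and -0.091 to 0.455 in the latter (log2, high minus low GC genes). Of the comparisons below, those of IM2 with IM1, IM5 with IM2, IM4 with IM3 and IM3 with M lie within a side. The interaction of Activin A and CHIR99021 sets IM5 against IM2 beside IM4 against IM3, so each part lies within a side. Neighbours in the order of levels lie within a side where both groups belong to it. In the other comparisons, the side and the group cannot be told apart. The labelled stages carried their markers as sums of TPM: 5 ESC genes came to 647 to 655 TPM in ESC, 4 EpiSC genes to 769 to 784 TPM in EpiSC and 5 mesoderm genes to 937 to 1026 TPM in M. The sum of 4 intermediate mesoderm genes was highest in IM3 (139 to 167 TPM) and below that of M (52.4 to 64.0 TPM) in IM1, IM2 and IM5. These 4 genes did not move as one. By the thresholds given below, 1 rose from M to IM3 (*Wt1*, by 5.78 on the log2 scale) and 1 fell (*Lhx1*, by 7.19). In IM3 against IM1, 1 was higher and 2 were lower, with a median log2 fold change of -2.155. Of the 8 Sertoli genes, *Sry* stayed at or under 3 counts in every library, and the sum in iSLCs (310 to 364 TPM) was below that in IM2 (430 to 486 TPM) and IM5 (431 to 464 TPM).

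All 7 genes varied over the 9 groups by edgeR's quasi-likelihood test at an adjusted p under 0.05, as did 96.4% of all genes tested. The largest of their adjusted p-values was 1.77e-22, for *Gata3*. Levels below are in TPM, a share of all transcripts in which counts are divided by length and which can be compared between genes. Tests are on counts that were normalized between libraries but not divided by length. Neighbouring groups in the order of mean TPM passed the test, at an adjusted p of 0.01 or less, unless stated. Fewer cells of a type and less RNA per cell cannot be told apart in bulk samples.

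**Figure D1:**
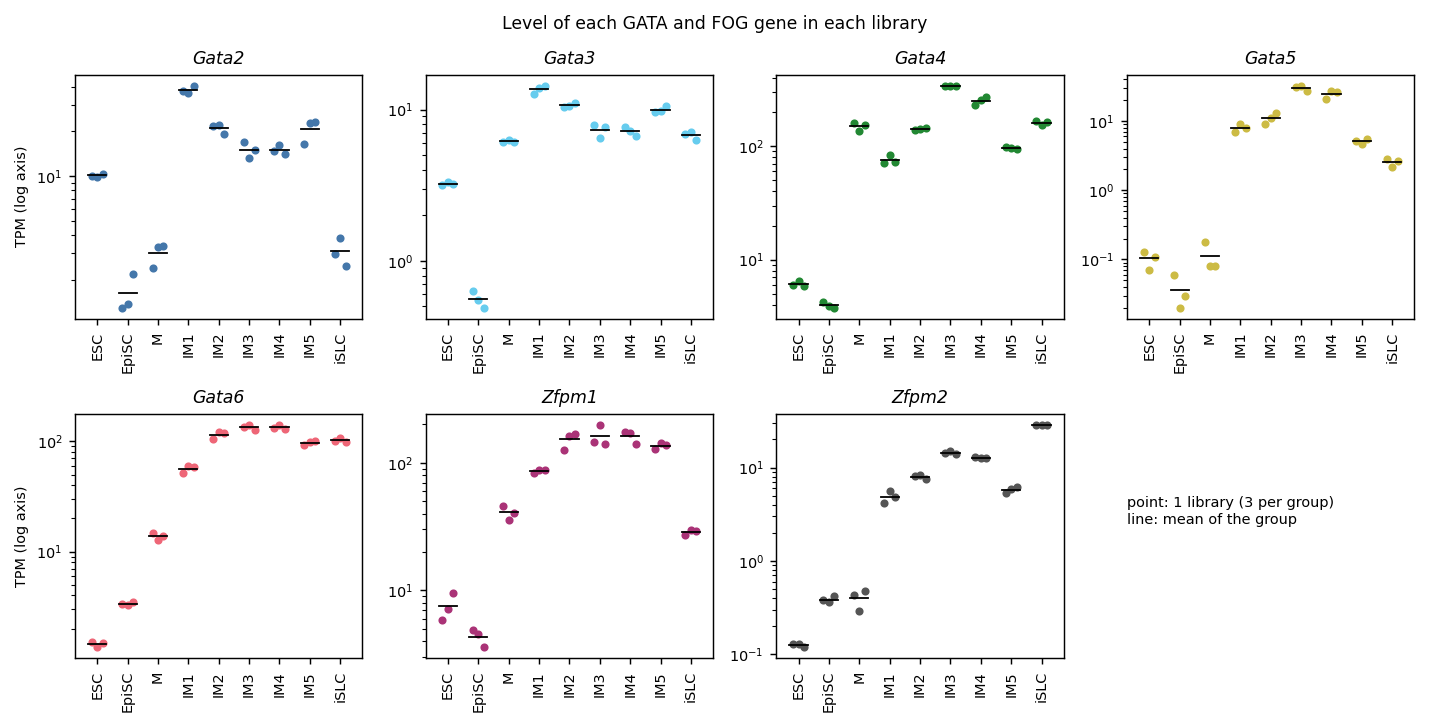
TPM (log axis) of each GATA and FOG gene in each of the 27 libraries, with 1 point per library and a line at the mean of each group. *Gata4* and *Gata5* had their highest mean in IM3, *Gata2* and *Gata3* in IM1 and *Zfpm2* in iSLC.

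*Gata4*, the GATA gene most tied to the early gonad, had the highest mean level of the 5 GATA genes in every group but ESC and IM5. It was at 6.02, 6.45 and 5.85 TPM in the ESC libraries and at 4.23, 3.90 and 3.77 TPM in EpiSC, and then at 160, 137 and 153 TPM in M. In IM1 it was at 70.4, 84.0 and 72.9 TPM, in IM3 at 341, 342 and 336 TPM and in IM4 at 232, 254 and 272 TPM. All 3 IM3 libraries were above every other library. With Activin A it was lower, at 138, 142 and 144 TPM in IM2 and at 98.9, 96.5 and 93.6 TPM in IM5. The iSLC libraries held 167, 153 and 163 TPM and overlapped those of M. From lowest to highest the means ran EpiSC, ESC, IM1, IM5, IM2, M, iSLC, IM4 and IM3. Of these neighbours only EpiSC and ESC did not pass the test on normalized counts (adjusted p = 0.716), although their TPM values did not overlap. Libraries of IM2 and M, and of M and iSLC, overlapped in TPM, and on counts the order of IM2 and M turned, with IM2 higher by 0.21 on the log2 scale (adjusted p = 0.00933).

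*Gata6*, a driver of primitive endoderm that also acts in heart and gonad, rose at each early step and then stayed high. It was at 1.5, 1.36 and 1.49 TPM in ESC, 3.35, 3.28 and 3.48 TPM in EpiSC and 14.8, 12.8 and 13.9 TPM in M. IM1 held 51.9, 60.1 and 58.1 TPM, and IM3 134.7, 139.6 and 127.6 TPM. The ranges of ESC, EpiSC, M and IM1 did not overlap. IM4 (131 to 141 TPM) did not pass the test against IM3 (adjusted p = 0.842), nor did iSLC (98.1 to 107 TPM) against IM5 (92.2 to 100.3 TPM; adjusted p = 0.956). IM2 (105 to 121 TPM) lay between iSLC and IM3.

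*Gata5*, known for endocardium and the heart fields, had the widest range of the 7 genes and was nearly silent before the IM stage. The EpiSC libraries held only 3 to 8 counts of it and those of M 9 to 19, at 0.18, 0.08 and 0.08 TPM in M. In IM1 it was at 6.93, 8.96 and 8.01 TPM, and in IM3 at 30.6, 32.4 and 27.2 TPM. IM4 held 21.0, 27.1 and 26.6 TPM, all below the 3 IM3 libraries, but the test on counts was not passed (adjusted p = 0.478). Activin A went with lower levels, at 9.10, 11.2 and 12.8 TPM in IM2 and 5.16, 4.65 and 5.57 TPM in IM5. In iSLCs *Gata5* was at 2.86, 2.20 and 2.61 TPM, below every IM library. IM1 and IM2 were neighbours in the order and did not pass the test (adjusted p = 0.0150), nor did ESC and M (adjusted p = 0.751) or EpiSC and ESC (adjusted p = 0.0596).

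*Gata2*, the GATA gene of blood progenitors and endothelium, was the highest of the GATA genes in ESC, at 10.1, 9.91 and 10.4 TPM. It was at 1.29, 1.37 and 2.17 TPM in EpiSC and 2.38, 3.33 and 3.36 TPM in M. Its highest level was in IM1, at 37.4, 36.3 and 40.7 TPM, the medium without RA. IM2 (19.2 to 22.2 TPM) and IM5 (16.4 to 23.1 TPM) did not pass the test of a difference (adjusted p = 0.740), nor did IM3 (13.1 to 17.0 TPM) and IM4 (14.0 to 16.1 TPM; adjusted p = 0.489). The iSLC libraries, at 2.98, 3.84 and 2.47 TPM, lay below every IM library. They overlapped those of M in TPM, while their log2 difference from M on counts was -0.325 (adjusted p = 0.000612).

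*Gata3*, which acts in the nephric duct and trophoblast, peaked in IM1 as *Gata2* did. It was at 3.15 to 3.33 TPM in ESC, at 0.49 to 0.63 TPM in EpiSC and at 6.06 to 6.27 TPM in M. IM1 was highest, at 12.6, 13.9 and 14.4 TPM, followed by IM2 (10.3 to 11.1 TPM) and IM5 (9.61 to 10.5 TPM), whose difference did not pass the test (adjusted p = 0.814). IM3 (6.51 to 7.95 TPM), IM4 (6.69 to 7.70 TPM), iSLC (6.34 to 7.15 TPM) and M followed one another in the order, and no neighbours among them passed the test.

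*Zfpm1* (FOG1), best known from red cells and megakaryocytes, was the major FOG gene before the iSLC stage. It was at 5.89 to 9.45 TPM in ESC, 3.59 to 4.87 TPM in EpiSC and 46.3, 35.5 and 40.7 TPM in M. The IM1 libraries held 82.8, 88.6 and 88.2 TPM, and the other IM media 127 to 198 TPM. Replicates spread widely in IM3, at 146, 198 and 139 TPM, and IM2, IM3, IM4 and IM5 overlapped. On counts IM2 was above IM3 by 0.38 on the log2 scale (adjusted p = 0.00601), against the order of their mean TPM (153 and 161). The iSLC libraries held 27.03, 29.7 and 29.1 TPM, below those of M, although the test on counts was not passed between them (adjusted p = 0.0367). The same held for ESC and EpiSC, which did not overlap in TPM (adjusted p = 0.0463). IM2 did not pass against IM5 (adjusted p = 0.594), nor IM4 against IM3 (adjusted p = 0.855).

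*Zfpm2* (FOG2), the partner of GATA4 in the gonad, was barely detected before the IM stage, at 0.12 to 0.13 TPM in ESC, 0.36 to 0.42 TPM in EpiSC and 0.29 to 0.48 TPM in M. In IM1 it was at 4.23, 5.59 and 4.80 TPM and in IM3 at 14.2, 14.9 and 13.9 TPM. IM4 (12.6 to 13.1 TPM) lay just under IM3, and the test on counts was not passed (adjusted p = 0.534), and IM2 (7.60 to 8.26 TPM) and IM5 (5.35 to 6.15 TPM) lay lower. The iSLC libraries were the highest, at 28.6, 28.3 and 28.5 TPM. Neither EpiSC and M (adjusted p = 0.886) nor IM1 and IM5 (adjusted p = 0.0162) passed the test.

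The makeup of the family in TPM therefore shifted from stage to stage. These sums and shares also depend on the length by which counts are divided, which differs between the sides for *Gata4* and *Zfpm1*. The mean length of *Gata4* was 2127 bases in IM3 and 2914 bases in IM5. That of *Zfpm1* was 2234 bases in IM3 and 2933 bases in iSLC. A shorter length gives a higher TPM for the same count. The 5 GATA genes summed to 21.0 ± 0.13 TPM (SD, n = 3) in ESC, 9.54 ± 0.41 TPM in EpiSC and 173 ± 12.7 TPM in M. The sum was 526 ± 10.7 TPM in IM3 and 276 ± 4.63 TPM in iSLC. *Gata2* made up 48.1% ± 1.20 of the sum in ESC, and *Gata4* 86.6% ± 0.69 in M. IM1 was the most mixed of the IM media, with 39.4% ± 1.89 from *Gata4*, 29.5% ± 0.49 from *Gata6* and 19.9% ± 1.78 from *Gata2*. In IM3, *Gata4* held 64.6% ± 0.78 and *Gata6* 25.5% ± 0.68. In IM5 they were level, at 42.1% ± 2.22 and 42.3% ± 0.78. Of the summed FOG level, *Zfpm2* made up 8.31% ± 1.15 in IM3 and 49.9% ± 1.37 in iSLC, and at most 10.5% in any library outside iSLC. The sum of both FOG genes was 175 ± 32.8 TPM in IM3 and 57.1 ± 1.28 TPM in iSLC.

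**Figure D2:**
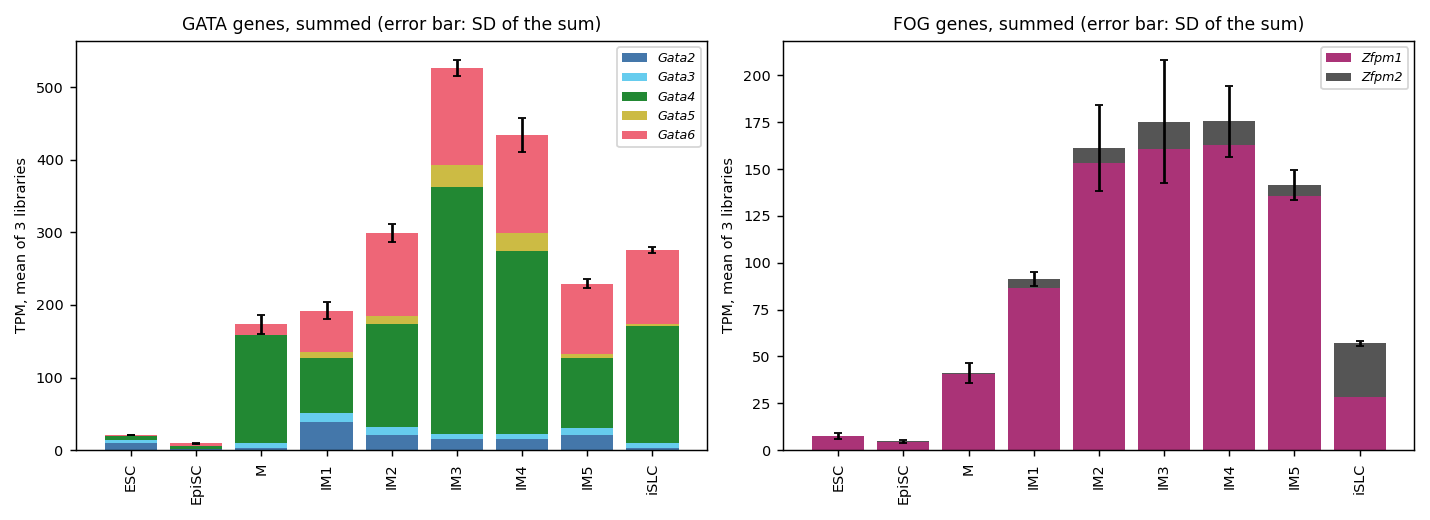
Mean TPM of the GATA genes (left) and the FOG genes (right) stacked for each group, 3 libraries per group, with error bars for the SD of the sum. The GATA sum was highest in IM3, at 526 TPM, and *Zfpm2* made up 49.9% of the FOG sum in iSLC.

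From ESC to EpiSC, the step toward a primed state, *Gata2* and *Gata3* fell while *Gata6* rose. A gene was called differentially expressed (DE) where it met 3 thresholds. Its adjusted p was 0.01 or less, it changed 2-fold or more, and its normalized reads averaged 100 or more both in the whole series and in a group of the comparison. Of the 7 genes 3 were DE, against 8.07% of all genes tested. *Gata2* fell by 2.70 on the log2 scale (SE 0.075, adjusted p = 1.6e-20) and *Gata3* fell by 2.67 (SE 0.11, adjusted p = 2.84e-17). *Gata6* rose by 1.26 (SE 0.088, adjusted p = 2.63e-12). *Zfpm2* had a log2 fold change of 1.65 (SE 0.18, adjusted p = 2.11e-08) but stayed under 100 reads in both groups. *Gata4* had a log2 fold change of 0.04 on counts and -0.59 with an offset for effective length. *Zfpm1* had a log2 fold change of -0.32, and with an offset for the GC trend it was DE at -1.08.

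From EpiSC to M, with BMP4 and without Activin A, *Gata4* and *Gata3* rose most, and *Gata6* and *Zfpm1* rose as well. Of the 7 genes 4 were DE, all higher, against 14.5% of all genes DE and 6.79% higher. *Gata4* rose by 4.76 on the log2 scale (SE 0.086, adjusted p = 7.73e-25), which is 27.1-fold, and *Gata3* by 3.60 (SE 0.10, adjusted p = 7.06e-21), which is 12.1-fold. *Zfpm1* rose by 2.84 (SE 0.13, adjusted p = 7.6e-17) and *Gata6* by 1.97 (SE 0.069, adjusted p = 5.31e-19). *Gata2* had a log2 fold change of 0.75 (adjusted p = 8.45e-09) and missed the fold threshold. *Gata5* and *Zfpm2* stayed under 100 reads.

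*Gata5* and *Zfpm2*, near silent in M, had the largest rises from M to IM1 and to IM3. Of the 7 genes 6 were DE from M to IM1, against 15.7% of all genes (9.72% higher), and 6 from M to IM3, against 14.9% (9.26% higher). All of these calls were higher in the IM cells. From M to IM1, *Gata5* had a log2 fold change of 6.02 (SE 0.23, adjusted p = 3.18e-18), *Zfpm2* of 3.51 (SE 0.11, adjusted p = 1.87e-20) and *Gata2* of 3.41 (SE 0.070, adjusted p = 1.03e-23). *Gata6* (1.94), *Zfpm1* (1.48) and *Gata3* (1.04) were DE too. *Gata4* alone was not DE, at -0.60 (SE 0.070, adjusted p = 2.28e-08). With an offset for effective length it was DE at -1.08, and *Zfpm1*, at 0.99, was not DE. With an offset for the GC trend *Zfpm1* was lower still, at 0.745, and not DE.

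From M to IM3, within a side of the libraries, *Gata5* had a log2 fold change of 7.85 (SE 0.22, adjusted p = 3.29e-21), *Zfpm2* of 4.97 (SE 0.10, adjusted p = 7.99e-24) and *Gata6* of 3.09 (SE 0.063, adjusted p = 7.01e-24). *Gata2* rose by 2.34 and *Zfpm1* by 1.83. *Gata4* was DE at 1.00 (SE 0.070, adjusted p = 1.1e-12), a 2.00-fold rise that sits at the fold threshold. Without M replicate 2, M replicate 3 or IM3 replicate 2 it was 0.996, 0.981 or 0.933 and not DE, and with an offset for effective length it was 0.985. *Gata3* had a log2 fold change of 0.07 (adjusted p = 0.432). The folds of *Gata5* rest on the 9 to 19 counts in each M library.

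RA, the one agent by which IM3 differs from IM1, went with higher *Gata4*, *Gata5*, *Gata6* and *Zfpm2* and with lower *Gata2*. IM3 and IM1 also lie on different sides of the libraries, which cannot be told apart from RA here. Of the 7 genes 5 were DE, against 6.34% of all genes. *Gata5* rose by 1.83 on the log2 scale (SE 0.13, adjusted p = 4.75e-12), *Gata4* by 1.60 (SE 0.071, adjusted p = 4.34e-16), *Zfpm2* by 1.47 (SE 0.075, adjusted p = 8.47e-15) and *Gata6* by 1.15 (SE 0.058, adjusted p = 5.72e-15). *Gata2* fell by 1.06 (SE 0.061, adjusted p = 7.83e-14). *Gata3* had a log2 fold change of -0.97 (SE 0.077, adjusted p = 5.1e-11), just short of the fold threshold. Without IM1 replicate 1 or IM3 replicate 1 it was -1.01 or -1.03 and DE. With an offset for the GC trend *Gata2* was -0.83 and not DE, while *Zfpm1*, at 0.36 without it, was DE at 1.12. IM2 lies on the same side as IM1 and differs from it in RA and Activin A together, and all 7 log2 differences of IM2 from IM1 were under the 2-fold threshold. *Gata6* was higher in IM2 by 0.95 (SE 0.058, adjusted p = 5.51e-13), *Gata4* by 0.81 (SE 0.070, adjusted p = 5.64e-10), *Zfpm1* by 0.73 (adjusted p = 4.29e-06) and *Zfpm2* by 0.65 (adjusted p = 9.77e-08). *Gata2*, at -0.82 (adjusted p = 2.175e-11), and *Gata3*, at -0.41 (adjusted p = 6.97e-05), were lower. *Gata5*, the gene with the largest rise from IM1 to IM3, had a log2 difference of 0.41 and did not pass (adjusted p = 0.0150).

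Activin A went with lower *Gata5* in both pairs of media that differ in it. Both pairs cross the 2 sides of the libraries, so Activin A and the side cannot be told apart in them. With RA alone as the base (IM2 against IM3), *Gata5* was the 1 DE gene of the 7, against 3.80% of all genes, and fell by 1.42 on the log2 scale (SE 0.13, adjusted p = 1.05e-09). *Gata4* had a log2 fold change of -0.79 (SE 0.070, adjusted p = 7.76e-10), *Zfpm2* of -0.81 (SE 0.074, adjusted p = 1.41e-09) and *Gata3* of 0.55 (SE 0.078, adjusted p = 2.02e-06). With an offset for effective length *Gata4* was DE at -1.23. With CHIR99021 also present (IM5 against IM4), 2 of the 7 genes were DE, against 4.09% of all genes. *Gata5* fell by 2.23 (SE 0.13, adjusted p = 4.25e-13) and *Zfpm2* fell by 1.10 (SE 0.075, adjusted p = 5.62e-12). *Gata4* had a log2 fold change of -0.97 (SE 0.070, adjusted p = 2e-11), just short of the fold threshold. It was DE at -1.33 with an offset for effective length and at -1.22 with an offset for the GC trend, and at -1.026 or -1.015 without IM4 replicate 1 or IM5 replicate 1. With the GC offset *Zfpm2*, at -0.96, was not DE. *Zfpm1* had log2 fold changes of 0.38 and 0.19 in the respective pairs, which turned to -0.34 and -0.66 with that offset, so no direction can be given for it.

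CHIR99021 without Activin A gave no DE call among the 7 genes, and both comparisons that test it lie within a side. By edgeR 0 of the 7 were DE from IM3 to IM4, against 0.101% of all genes (21 of 20839), by DESeq2 0 as well, and 1 of 7 had an unadjusted p under 0.05. By an adjusted p of 0.01 alone, which 1.03% of all genes passed, *Gata4* passed at a log2 fold change of -0.32 (SE 0.069, 95% interval -0.46 to -0.18, adjusted p = 0.00948). The 95% intervals of the other 6 genes lay between -0.49 and 0.30. The replicate numbers of IM3 and IM4 went together across genes, and a fit with the replicate block also called 0 of the 7. That block shares its replicate effects over all 9 groups, so it is not a test of IM3 and IM4 as pairs. With Activin A present (IM5 against IM2), *Gata5* was the 1 DE gene of the 7, against 0.235% of all genes, and fell by 1.05 (SE 0.13, adjusted p = 6.49e-06). Without IM2 replicate 3 or IM5 replicate 2 it was -0.91 or -0.95 and not DE. *Gata4* had a log2 fold change of -0.50 (SE 0.070, adjusted p = 2.74e-05) and *Zfpm2* of -0.41 (SE 0.075, adjusted p = 0.000618). The interaction, which tests whether the effect of CHIR99021 differs with Activin A, was DE for 0 of the 7 genes by edgeR and by DESeq2, against 0.0336% of all genes by edgeR, and 3 of 7 had an unadjusted p under 0.05. That of *Gata5* was -0.81 (SE 0.18, 95% interval -1.18 to -0.44, adjusted p = 0.0286).

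From IM3 to iSLC, *Gata5*, *Gata2* and *Zfpm1* fell and *Zfpm2* rose, while *Gata4* and *Gata6* kept most of their counts. Of the 7 genes 4 were DE, against 19.2% of all genes. *Gata5* fell by 3.54 on the log2 scale (SE 0.14, adjusted p = 7.45e-18), *Gata2* fell by 2.67 (SE 0.072, adjusted p = 1.3e-21) and *Zfpm1* fell by 2.09 (SE 0.11, adjusted p = 3.25e-15). *Zfpm2* rose by 1.00 (SE 0.072, adjusted p = 1.43e-12), again a 2.00-fold change at the threshold. It was 0.988, 0.988 or 0.999 without IM3 replicate 1, IM3 replicate 3 or iSLC replicate 3, and 0.979 in a fit of these groups only, with no DE call in any of these 4. *Gata4* had a log2 fold change of -0.64 (SE 0.070, adjusted p = 4.97e-09) and *Gata6* of -0.38 (SE 0.057, adjusted p = 1.58e-06). With an offset for effective length *Gata4* was DE at -1.05. *Gata3* had a log2 fold change of -0.14 (95% interval -0.30 to 0.02, adjusted p = 0.111). Summed fibroblast-like markers were at 999 to 1276 TPM in IM3 and 5696 to 5829 TPM in iSLC, summed endothelial markers at 64.6 to 76.0 and 27.5 to 30.0 TPM, and 5 summed genes of embryonic red cells at 101.5 to 123.5 and 6.01 to 6.96 TPM. Of these 5 red cell genes 3 were DE lower in iSLC and 3 were at or under 3 counts there, and the part of such cells in these changes was not tested.

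**Figure D3:**
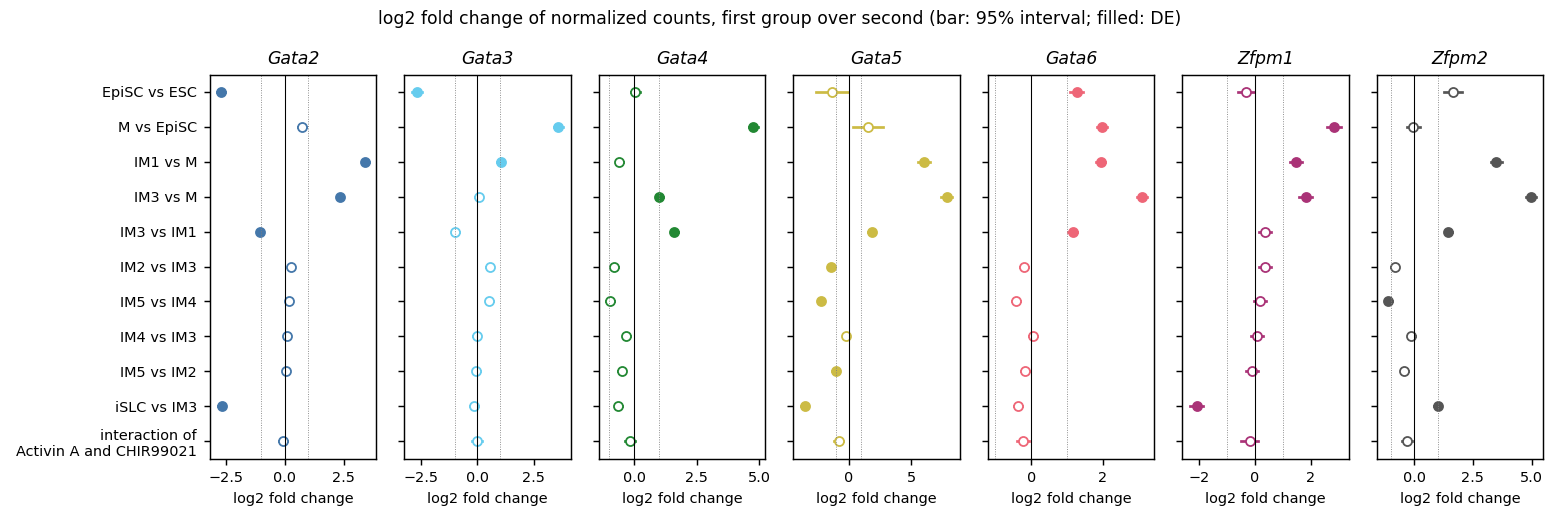
log2 fold change of normalized counts (first group over second) of each gene in each comparison, with bars for the 95% interval, filled points for DE genes, dotted lines at a 2-fold change and a scale of its own for each gene. The *Gata5* points for both Activin A comparisons (IM2 vs IM3 and IM5 vs IM4) lie below zero, at -1.42 and -2.23.

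Genes of the tissues in which these factors act were described by counts alone, to be read beside the share of all genes called in each direction. From M to IM1 9.72% of all genes rose and 5.94% fell, and from M to IM3 9.26% rose and 5.66% fell. In IM3 against IM1 2.62% were higher and 3.72% lower, and from IM3 to iSLC 10.3% rose and 8.92% fell. The shares that were lower were 1.34% in IM2 against IM3, 1.46% in IM5 against IM4, 0.101% in IM4 against IM3 and 0.192% in IM5 against IM2. Among 12 heart partners and targets, 8 rose and none fell from M to IM3, with a median log2 fold change of 3.75 beside 0.00 for all genes tested. *Myh6* (atrial myosin heavy chain, 7.09), *Tbx5* (a T-box factor of the heart, 6.50) and *Tnnt2* (cardiac troponin T, 6.44) led them. From M to IM1 8 of the 12 rose as well and none fell, with a median of 3.55. In IM3 against IM1 4 were higher and 2 lower, with a median of 0.06. From IM3 to IM4 3 of the 12 fell, which were *Myh6* (-2.17), *Actc1* (cardiac actin, -1.56) and *Myl7* (atrial myosin light chain, -1.51), and 4 were lower with Activin A in IM2 against IM3. In IM5, 4 were lower against IM4 and 4 against IM2, with *Myh6* (-3.93 and -2.81) and *Myl7* (-2.96 and -2.45) lowest in each. From IM3 to iSLC 7 fell and 1 rose, with a median of -1.62 and with *Hand1* (-5.67) and *Myl7* (-4.52) lowest. The sum of cardiac muscle markers was 158 to 304 TPM in IM3, 82.4 to 103 TPM in IM4 and 139 to 141 TPM in iSLC. From IM3 to iSLC 4 of its 5 genes were DE lower, and *Tnnt2*, named here after its values were seen, made up most of the iSLC sum, at 53.3 to 85.2 TPM in IM3 and 126.9 to 131.6 TPM in iSLC.

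Among 11 tested gonad partners and targets of GATA4 and FOG2, 5 rose from M to IM3 and none fell, with *Tcf21* (Pod1, 6.22) and *Wt1* (a zinc finger factor of the genital ridge, 5.78) ahead. The same list had 3 rises with RA in IM3 against IM1, led by *Tcf21* (4.91) and *Wt1* (4.41). *Wt1* (-2.22) and *Tcf21* (-1.58) were its only DE genes in IM2 against IM3, both lower with Activin A, and both were its DE genes in IM5 against IM4 too (-2.55 and -2.05). From IM3 to iSLC 5 rose, led by *Nr5a1* (10.1) and *Dmrt1* (8.44), both of which the viruses supplied, so that introduced and native transcripts cannot be told apart.

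Among 11 blood genes that go with GATA1, GATA2 and FOG1, 5 rose from M to IM1, with *Fli1* (an ETS factor, 6.38), *Tal1* (4.56) and *Lmo2* (2.63) ahead. *Itga2b* (-1.75) and *Tal1* (-1.28) fell in IM3 against IM1, and from IM3 to iSLC *Tal1* fell by 4.27 while *Itga2b* rose by 1.14. *Gata2* was DE higher in the first of these 3 comparisons and lower in the other 2. Other values did not move with *Gata2*. From ESC to EpiSC *Gata2* fell, and *Lmo2*, the only DE gene of the 11, rose. In IM3 against IM1, 3 of the 5 embryonic red cell genes were DE higher and none lower. The 11 genes summed to 198.2 to 224.9 TPM in IM3 and 257.6 to 272.7 TPM in iSLC, where *Gata2* was lower. *Ldb1* made up most of both sums, with means of 174.9 and 231.1 TPM, and was named after its values were seen. The endothelial markers summed to 121 to 133 TPM in IM1, 64.6 to 76.0 TPM in IM3 and 27.5 to 30.0 TPM in iSLC, and their part in the *Gata2* levels was not tested.

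Among 13 endoderm genes downstream of GATA4 and GATA6, 7 rose from M to IM3, and from IM3 to iSLC 7 fell and 2 rose. *Afp* (alpha-fetoprotein) rose by 10.5 and fell by 3.75 in these steps, and *Ttr* (transthyretin) rose by 5.79 and fell by 4.98. In IM3 against IM1, where *Gata4* and *Gata6* were higher, 4 of the 13 were lower and 1 was higher. *Sox17* (-2.54) and *Sox7* (-2.25) were lowest there. In IM2 against IM3, where *Gata4* was at -0.79, 5 of the 13 were higher and none lower, beside 3.80% of all genes DE either way. The sum of the 13 genes was 613 to 675 TPM in IM3 and 1400 to 1555 TPM in iSLC. In that sum, *Col4a1* (a basement membrane collagen) had means of 96.1 and 875 TPM and *Lamb1* (a laminin chain) of 158 and 376 TPM, both named after their values were seen. A narrower list of 5 endoderm markers summed to 10.96 to 12.6 TPM in M, 333 to 396 TPM in IM3, 594 to 772 TPM in IM2 and 10.2 to 17.1 TPM in iSLC. *Gata4* and *Gata6* were at 153 to 167 TPM and 98.1 to 107 TPM in iSLC, and the part of endoderm-type cells in their IM levels was not tested.

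The 8 nephric duct genes that go with GATA3 did not move as one. From M to IM1 2 rose and 2 fell, led by *Gfra1* (a GDNF co-receptor, 7.79) and *Lhx1* (-4.21), and none was DE from IM3 to iSLC. Of 9 tested surface ectoderm and trophoblast genes, 3 fell in IM3 against IM1, led by *Cdx2* (-4.45), and 4 fell from IM3 to iSLC, led by the keratin genes *Krt8* (-5.86) and *Krt18* (-5.48). *Gata3* was not DE in either comparison. In IM3 against IM1 it was lower by 0.97 (adjusted p = 5.1e-11), just short of the fold threshold, and DE without IM1 replicate 1 or IM3 replicate 1. From IM3 to iSLC it was at -0.14 (adjusted p = 0.111). Of 13 corepressor genes of FOG proteins, *Mbd2* (1.27) and *Chd3* (1.08) rose from M to IM3 and *Chd3* (1.23) rose from IM3 to iSLC, with none falling in these steps. Their sum stayed between 1690 and 2206 TPM in all libraries, whereas the FOG genes ranged over 4.01 to 213 TPM. Of the 5 other genes with GATA-type zinc fingers, *Trps1*, a repressor, was the DE gene in each of the 3 comparisons with a call, at -1.002 from ESC to EpiSC, 1.05 from M to IM1 and 2.16 from IM3 to iSLC.

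The genes most like each of the 7 were found by Pearson's r over the 9 group means of log2 normalized counts among 13476 other genes, as a description, since all genes share the same 27 libraries. *Gata5* was most like *Mylk3* (r = 0.9955, a kinase of cardiac myosin light chain), *Itga4* (0.9908) and *Tubgcp3* (0.9899). *Gata4* was most like *Gm20498* (0.9899), *Fzd4* (0.9890, a Frizzled receptor) and *Gm4724* (0.9883). The closest to *Gata6* were *Pcdhb21* (0.9946), *Gpr161* (0.9936) and *1010001N08Rik* (0.9935), and the last shares exon bases with it on the opposite strand. *Zfpm2* was closest to *Pcdhb18* (0.9928), *Aebp1* (0.9926) and *Axl* (0.9912), and *Zfpm1* to *Efnb3* (0.9957), *Adra1b* (0.9919) and *Pdp1* (0.9913). *Gata2* had lower values with *Trappc2* (0.9782), *Gdap2* (0.9650) and *Fgfr4* (0.9639), and *Gata3* was closest to *Osbpl8* (0.9871), *Pip5k1a* (0.9755) and *Snx30* (0.9737). Among the 7 genes the highest value was 0.947 between *Gata6* and *Zfpm2*, and the lowest was 0.316 between *Gata2* and *Zfpm2*. *Gata4* had a value of 0.926 with *Gata6*, 0.879 with *Zfpm1* and 0.813 with *Zfpm2*.

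Effective length, the length by which RSEM divides a gene's counts, was not the same in all libraries for *Gata4* and *Zfpm1*, and it moved with the side of the libraries. For *Gata4* it was 1672 to 2362 bases in ESC, M, IM3 and IM4, and 2665 to 3017 bases in the other 15 libraries, without overlap. For *Zfpm1* it was 1812 to 2397 and 2511 to 3198 bases, again without overlap. For *Gata5* (3038 to 3086 and 3078 to 3089 bases), *Gata6* (2955 to 3003 and 2995 to 3006 bases) and *Zfpm2* (4735 to 4783 and 4775 to 4786 bases) it hardly moved. *Gata2* varied within both sides, at 1909 to 2897 and 1521 to 2828 bases. A shorter length gives a higher TPM for the same count, so *Gata4* in ESC and EpiSC had mean TPM values of 6.11 and 3.97 but mean normalized read counts of 443.9 and 457.6. For the same reason, the ratio of IM3 to IM1 was larger for *Gata4* in TPM (means of 339.7 and 75.8) than the 3.04-fold of its counts. Within a side *Gata4* was at 149.9 TPM in M and 339.7 TPM in IM3, where its mean length was 2116 and 2127 bases. What set the difference in length was not tested.

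**Figure D4:**
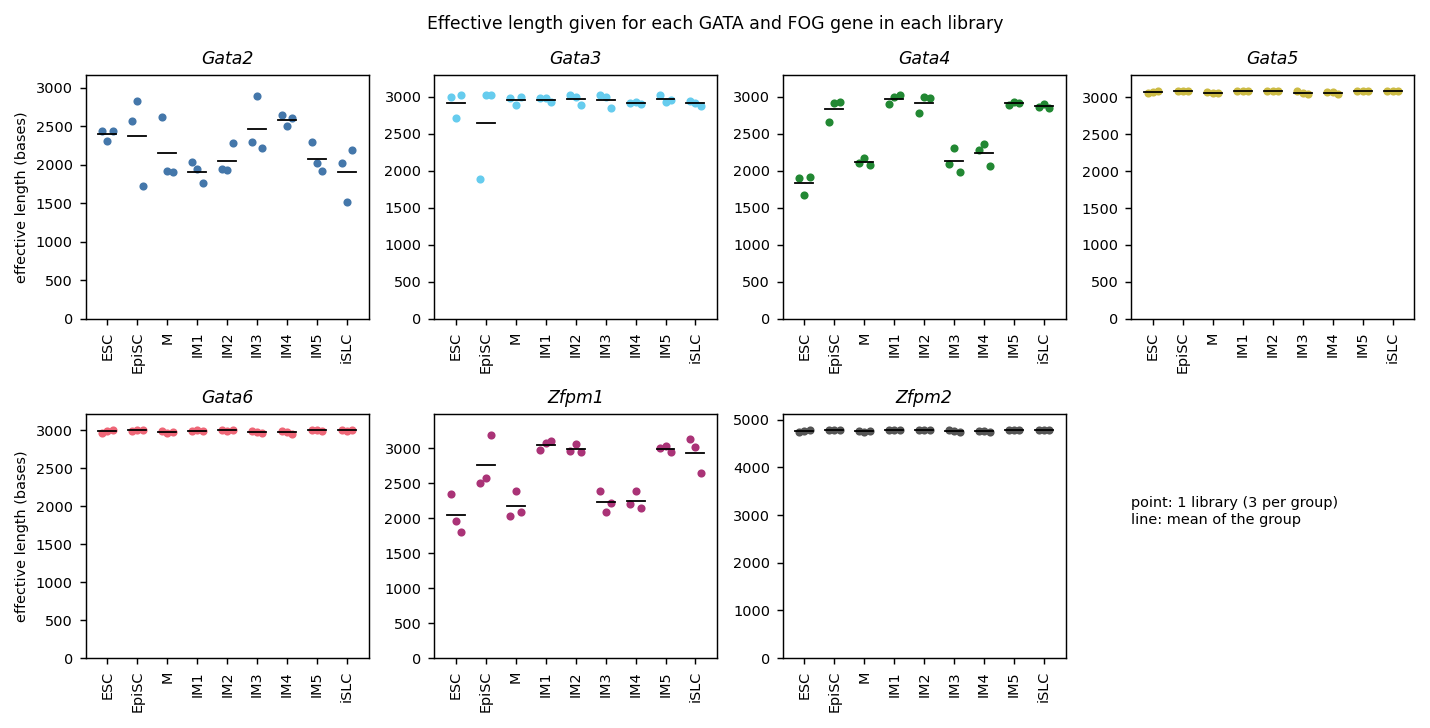
Effective length in bases of each gene in each of the 27 libraries, with 1 point per library, a line at the group mean and axes that start at 0. *Gata4* and *Zfpm1* sit lower in ESC, M, IM3 and IM4 than in the other groups, and *Gata5*, *Gata6* and *Zfpm2* are level throughout.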

How the data were processed

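Bulk RNA was sequenced from 27 libraries in 9 groups of 3, grouped by the labels. The authors trimmed paired reads with cutadapt 1.9.1, aligned them to GRCm38 with STAR 2.5.2a and ran RSEM 1.3.0. The expected counts, TPM and FPKM values the authors deposited are RSEM estimates per gene, not normalized between libraries beyond TPM and FPKM scaling, and the authors did not pool replicates. Gene names came from GENCODE on the same build and matched 48435 of 48795 genes (99.26%).

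Expected counts were rounded and fitted in one edgeR 4.0.16 model (R 4.3.3, TMM, filterByExpr, quasi-likelihood test) over all 27 libraries, with Benjamini-Hochberg adjustment over 20839 genes. The DE thresholds follow the study. TPM was used as deposited, and FPKM only as an alternative. The length and GC terms and DESeq2 1.42.0 were alternatives. The edgeR step was tested on simulated counts for IM3 against IM1 (19779 genes) and recovered 100% of 200 changed genes. All of these changes were set well past the 2-fold threshold, in genes with many reads. No other gene was changed, and the simulated counts held no difference between the sides, so such recovery was an easy test. Recovery of genes close to the 2-fold threshold was not tested. A floor of 3 counts covers counting error only.

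The 7 genes and all lists were chosen with earlier results of these data known. Named beside the 7 were up to 3 DE genes of a list with the largest change and the 3 genes most alike by Pearson's r (log2 of normalized count plus 1, genes with a mean of at least 100 reads). Same-numbered replicates correlated by 0.018 on average, and each of the 3 numbers by over 0.1 in 1 of 36 pairs of groups, IM3 and IM4. The main fit did not treat these groups as paired, and the replicate block is shared by all groups. Within replicates, counts differed by more than sampling noise in every group.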

Additional observations from a re-analysis of the deposited data

How the results depend on the processing

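The count of the 7 genes that were DE stayed within 1.5 times in 98 of 99 results over the alternatives that kept all libraries. The exception was an offset for effective length, with 2 DE genes in place of 1 in IM2 against IM3, by the added call of *Gata4*. Over the fits that left out 1 library, the count was 0 to 1 in IM5 against IM2 and stayed within 1.5 times elsewhere. With the replicate block, IM3 against M kept a count of 6 and IM3 against IM1 a count of 5, and the block alone changed no call of the 7 genes. All 7 genes differed over the 9 groups under each alternative.

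Some log2 fold changes changed sign. In EpiSC against ESC, *Gata4* was -0.59 with the length offset, -0.052 with the GC offset and -0.049 with the GC offset and the replicate block. *Zfpm1* was -0.033, -0.34 and -0.34 in IM2 against IM3 and -0.20, -0.66 and -0.66 in IM5 against IM4 under these alternatives in turn. *Gata2* was -0.10 and -0.10 in IM5 against IM4 and -0.05 and -0.05 in IM5 against IM2 with the GC offset, without and with the block. *Zfpm2* was 0.013 in M against EpiSC in a fit of those groups, and *Gata3* 0.001 in IM4 against IM3 with the length offset. With 1 library left out, signs also turned for *Zfpm2* in M against EpiSC (-0.17 to 0.13), *Gata3* in IM4 against IM3 (-0.094 to 0.032), *Zfpm1* in that comparison (-0.022 to 0.195), *Gata3* in IM5 against IM2 (-0.071 to 0.016) and *Gata3* in the interaction (-0.071 to 0.054). None of these was DE in either direction, and the cause was not tested. Mean TPM moved by factors of 0.976 to 1.03 on the TMM scale, and levels relative to their own mean by 0.920 to 1.23 in FPKM.

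The count of all DE genes rose without a minimum of reads, from 1682 to 3826 (EpiSC against ESC), 3023 to 5842 (M against EpiSC), 3262 to 5818 (IM1 against M), 3108 to 5402 (IM3 against M), 1321 to 2497 (IM3 against IM1), 792 to 1509 (IM2 against IM3), 852 to 1667 (IM5 against IM4), 21 to 36 (IM4 against IM3), 49 to 101 (IM5 against IM2) and 4011 to 7015 (iSLC against IM3). In IM4 against IM3 it was 12 without IM3 replicate 1 and 12 in a fit of those groups. In the interaction it was 7, and 2 to 13 under the alternatives.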
